A study of Mus musculus with 14 samples.

Results

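Mertk, Axl, Tyro3, Gas6, Timd4, C1qa, C1qb and C1qc were followed across dendritic cells, macrophages and monocytes sorted from mouse bone marrow. The genes were taken by symbol from 2 deposited expression tables, and all 8 were found in each, among 24980 genes in the dendritic cell table and 17118 in the monocyte and macrophage table. Expression was measured by bulk RNA sequencing of 14 libraries. The groups were dendritic cells after a single dose of PAM3CSK4 (n = 4), dendritic cells after vehicle (n = 4), macrophages (n = 3) and monocytes (n = 3). PAM3CSK4, a lipopeptide made to resemble bacterial lipoproteins, is an agonist of the Toll-like receptor pair TLR1/2. Per the labels, all cells came from Cx3cr1gfp/+ mice, in which GFP replaces 1 allele of the chemokine receptor gene Cx3cr1, while the series text calls the mice wildtype. The dendritic cell gate took MHC class II high, CD11c high, GFP-high cells negative for Gr-1 and B220. The macrophage gate asked for GFP-negative, MHC class II high, CD169-positive cells negative for Gr-1 and B220, and the monocyte gate for GFP-high, CD115-positive, B220-negative cells of low or high Gr-1. The labels give neither the dose, the time after it nor the age of the mice. They do not say whether replicates are different animals, and p-values therefore cover only the spread from library to library, part of which may be technical.

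Efferocytosis is the uptake of dying cells by phagocytes. Tyro3, Axl and Mertk are receptor tyrosine kinases, together the TAM receptors, which do not touch the dying cell directly. They bind Gas6 or protein S, secreted proteins that hold on to the phosphatidylserine exposed on a dying cell. Timd4 encodes TIM-4, a receptor that binds phosphatidylserine itself and tethers the cell. C1qa, C1qb and C1qc encode the A, B and C chains that assemble into C1q, which starts the classical complement pathway and also coats apoptotic cells. TAM receptors also dampen Toll-like receptor and interferon signalling. In bone marrow, macrophages take up aged neutrophils and the nuclei shed by maturing red cells.

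The C1q genes lie side by side on the minus strand of chromosome 4 (mm10), with C1qb at 136880126 to 136886201, C1qc at 136889802 to 136892915 and C1qa at 136895916 to 136898845. Their rows span 18720 bases, with gaps of 3600 bases between C1qb and C1qc and 3000 bases between C1qc and C1qa. Mertk (chromosome 2, 128698915 to 128803008) and Tyro3 (chromosome 2, 119797740 to 119818104) are on the plus strand, as is Timd4 (chromosome 11, 46810799 to 46844334). Axl (chromosome 7, 25756500 to 25788734) and Gas6 (chromosome 8, 13465374 to 13494536) are on the minus strand. No other row of the files overlaps any of the 8 genes.

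The 250 bases before the start site are printed for C1qb and C1qc, neighbours whose levels ran close together in dendritic cells, and for Axl, the member that changed there after PAM3CSK4. They come from RefSeq (GRCm38.p6), in which 7 of the 8 genes had an entry, and read 5′ to 3′ on the strand of the gene. Capitals mark GAGGAA, a core of sites bound by the myeloid factor PU.1, or TGCTGA, part of the recognition element of MAF factors, on either strand, so that TTCCTC is GAGGAA on the other strand. Positions count back from the start site. The C1qb stretch is chr4:136886201-136886450, the C1qc stretch chr4:136892915-136893164 and the Axl stretch chr7:25788734-25788983. In the GENCODE vM21 annotation the C1qc gene reaches to 136893065, inside its printed stretch, so its start site differs between annotations.
C1qb: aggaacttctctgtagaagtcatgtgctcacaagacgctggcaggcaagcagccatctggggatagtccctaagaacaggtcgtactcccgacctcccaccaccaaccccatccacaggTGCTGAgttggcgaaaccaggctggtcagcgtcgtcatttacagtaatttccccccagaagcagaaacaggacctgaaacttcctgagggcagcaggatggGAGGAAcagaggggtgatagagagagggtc
C1qc: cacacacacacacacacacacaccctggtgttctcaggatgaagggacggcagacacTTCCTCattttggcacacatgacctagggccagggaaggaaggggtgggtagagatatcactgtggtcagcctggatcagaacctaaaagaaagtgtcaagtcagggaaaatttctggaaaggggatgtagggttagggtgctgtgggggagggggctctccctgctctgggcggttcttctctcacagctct
Axl: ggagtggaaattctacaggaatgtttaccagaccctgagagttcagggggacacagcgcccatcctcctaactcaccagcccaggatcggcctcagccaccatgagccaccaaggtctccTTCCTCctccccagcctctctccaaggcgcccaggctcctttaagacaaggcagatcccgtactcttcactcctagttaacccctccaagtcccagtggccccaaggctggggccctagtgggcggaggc
C1qb held GAGGAA at -30 to -25 and TGCTGA at -131 to -126. C1qc held the first motif on the other strand at -193 to -188, and Axl likewise at -130 to -125. Over all 32851 RefSeq promoter windows cut to the same length, 23.3% held GAGGAA and 16.1% held TGCTGA on either strand, so a match is common. An NF-kB motif (GGGA, any 4 bases, CC) occurred in C1qb, C1qc, Axl and Mertk, and in 17.6% of all windows. The AP-1 motif TGANTCA (in 6.75% of all windows) and a motif like the interferon response element (GAAA, any 2 bases, GAAA; in 2.98%) occurred in none of the 7. A match is a description of letters, not a site shown to be bound.

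Values were read as CPM, a unit in which each library is brought to the same total of reads or fragments. Summed over the listed genes, however, the libraries ranged from 350368 to 578711 CPM, so these sums were not equal. CPM values are not divided by gene length, so levels of different genes are compared below only after division by transcript length. Less an added 0.0001, the low values of each library fell largely on whole steps, and 1 CPM stood for 28.2 to 75.2 reads or fragments if 1 step is 1 of them. Vehicle libraries correlated with each other at 0.946 to 0.971 (log2 values over genes within the group), while PAM3CSK4 replicate 4 correlated with its group at 0.879 to 0.894. That library had a summed level of 14 dendritic cell markers of 810 CPM, against 5009 to 6106 CPM in the other PAM3CSK4 libraries and 10954 to 13787 CPM with vehicle, and its 12 neutrophil markers summed to 11469 CPM. Cd209a was at the lowest listed value in it. In the macrophage libraries the markers went partly against the label. Of 14 macrophage markers tested, 6 rose against monocytes (Cd5l, Hmox1, Itgad, Slc40a1, Spic and Vcam1) and 3 fell (Adgre1, Cd68 and Fcgr1). Vcam1 averaged 90.2 CPM in macrophages and 19.2 CPM in monocytes, and Slc40a1 61.9 and 8.90 CPM. Adgre1, which encodes F4/80, was at 16.2 to 32.7 CPM in macrophages and 42.6 to 93.9 CPM in monocytes. Of 15 monocyte markers tested, 12 fell and 0 rose, beside 7.42% and 12.8% of all genes. The 12 include Cx3cr1 and Csf1r, which encodes CD115. The gates sorted on Cx3cr1-GFP and CD115, so the fall of these genes is no separate support for the label. Siglec1, which encodes CD169, was at 18.6 to 25.2 CPM in macrophages and 2.20 to 34.7 CPM in monocytes. In the macrophage libraries 9 of 10 plasma and B cell markers, 9 of 10 NK and T cell markers and 10 of 10 erythroid markers rose, beside 12.8% of all genes. Some of these, such as Mzb1, Pou2af1 and Ncr1, averaged 0.0955, 0.198 and 0.0376 CPM in monocytes. Those were tested only through the macrophage libraries, where they are high. The name macrophages is therefore that of the labels.

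**Figure D1:**
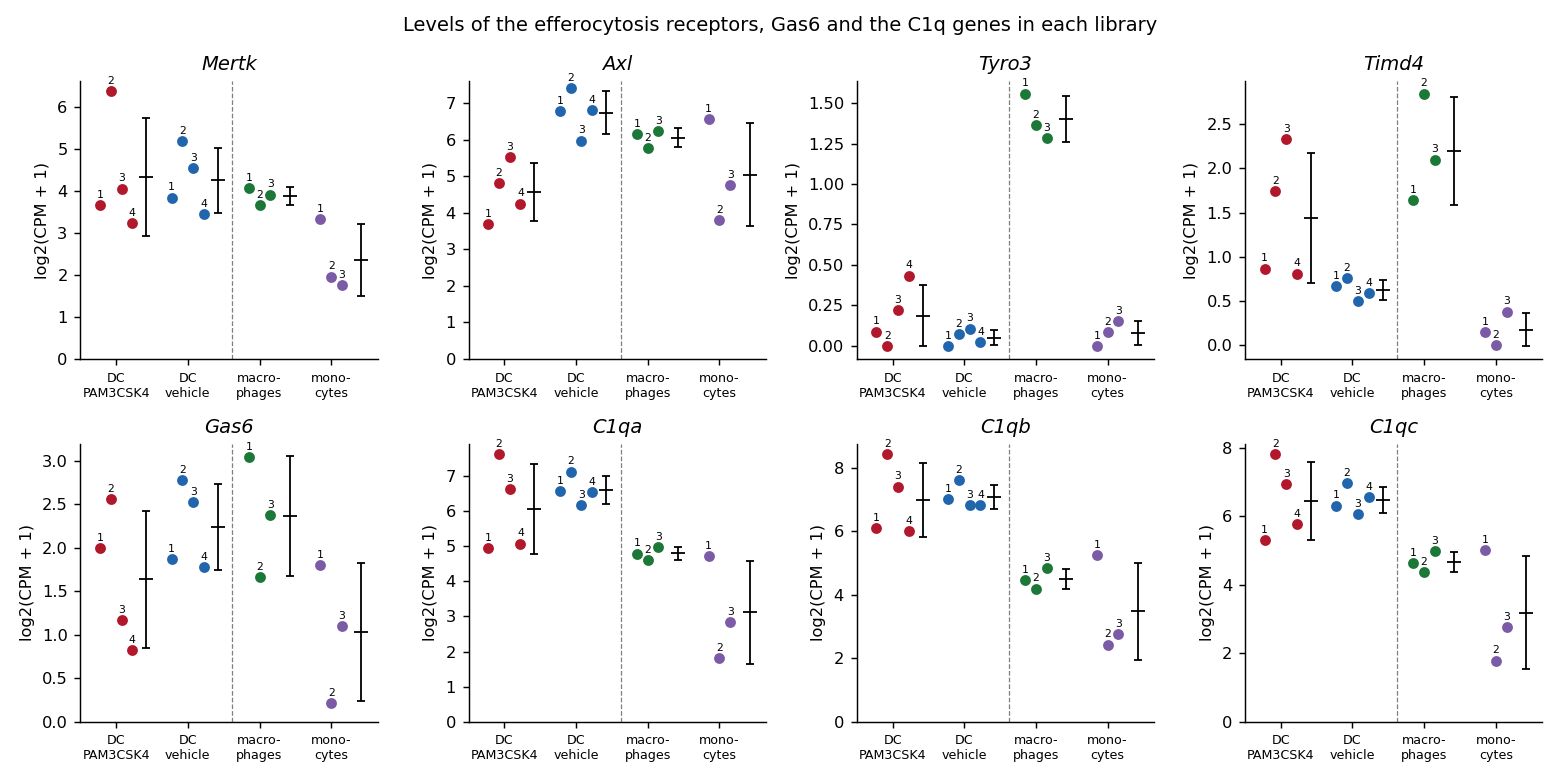
Level of each of the 8 genes in every library, as log2(CPM + 1), with the replicate number at each point and the mean ± SD of the group in black (n = 4 for PAM3CSK4 and vehicle, n = 3 for macrophages and monocytes). The dashed line separates the 2 tables, which were made separately. Axl is lower in all PAM3CSK4 libraries than in any vehicle library, and the C1q genes and Axl of monocytes replicate 1 lie far above those of the other monocyte libraries.

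Per kilobase of transcript, the C1q genes had higher mean levels than the receptors in every group, although in monocytes C1qa (10.9 CPM per kb) and Axl (10.4) lay within their spread. In vehicle dendritic cells the mean level was 126 CPM per kb for C1qb, 95.0 for C1qa and 75.7 for C1qc, then 26.4 for Axl, 4.73 for Mertk, 1.54 for Gas6, 0.251 for Timd4 and 0.00914 for Tyro3. In macrophages the order was C1qa with 25.8 CPM per kb, C1qc with 20.6, C1qb with 20.2, Axl with 15.5, Mertk with 3.22, Gas6 and Timd4 with 1.78 each and Tyro3 with 0.414. In macrophages the gaps between C1qc and C1qb and between Gas6 and Timd4 lay within the SD over libraries. Transcript lengths are those of the longest principal transcript in GENCODE vM21, and the isoform in these cells was not measured. The level of Axl is less certain, since its values fell off whole steps in 7 of 8 dendritic cell libraries and 3 of 6 of the others.

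After PAM3CSK4, Axl was the 1 member that changed in dendritic cells. Axl levels were 11.9, 27.1, 45.2 and 18.0 CPM in PAM3CSK4 libraries, against 108, 169, 61.7 and 111 CPM in vehicle libraries. The highest PAM3CSK4 value lay below the lowest vehicle value. The log2 change was -2.17 ± 0.39 (SE; 95% interval -3.02 to -1.32), a fold of 0.222, with adjusted p = 0.0105 by limma (Benjamini-Hochberg, across the 11377 genes tested). Of those genes 5.12% changed, 2.29% fell, the groups did not overlap for 14.8%, and 4.68% were lower in all PAM3CSK4 libraries than in any vehicle library. With each library left out in turn the change stayed between -2.49 and -1.88 and passed each time, with adjusted p of 0.0059 to 0.049, but without a filter on low values adjusted p was 0.0658. In bulk RNA, fewer cells of a type and less RNA per cell cannot be told apart. The summed dendritic cell markers were also lower in the PAM3CSK4 libraries, as given above, and 4 of those 14 markers fell and 0 rose. The summed macrophage markers spanned 569 to 2769 CPM in PAM3CSK4 libraries and 703 to 1117 CPM in vehicle libraries. The part of these shifts in the Axl result was not tested. Axl values also fell off whole steps in 7 of the 8 dendritic cell libraries, and how its reads were assigned is unknown.

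The change of Mertk in dendritic cells did not pass. Mertk was at 11.7, 82.1, 15.7 and 8.42 CPM in PAM3CSK4 libraries, against 13.4, 35.7, 22.4 and 9.90 CPM in vehicle libraries. The groups overlapped, and PAM3CSK4 replicate 2 held more than any other library. The log2 change was 0.08 ± 0.59 (95% interval -1.22 to 1.37; limma adjusted p = 0.951), so changes of either sign lie within the interval, and its sign turned with the scaling between libraries. PAM3CSK4 replicate 2 also had the highest sum of macrophage markers, 2769 CPM against 569 to 1231 CPM in the rest of its group, with Adgre1 at 709 CPM. Whether that bears on its Mertk level was not tested.

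Within a library, the ratio of Axl to Mertk was 1.02, 0.330, 2.88 and 2.14 with PAM3CSK4 and 8.10, 4.74, 2.75 and 11.2 with vehicle. The ranges met at PAM3CSK4 replicate 3 and vehicle replicate 3. The mean log2 ratio differed by -2.29 (exact permutation test, two-sided, p = 0.0571; 0.0762 adjusted over the 4 ratios computed), so a difference between the changes of the 2 receptors did not pass. These ratios were chosen after the values had been seen.

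Tyro3 stayed near the floor in dendritic cells. It was at 0.0629, 0.164 and 0.351 CPM in PAM3CSK4 replicates 1, 3 and 4 and at the lowest listed value in replicate 2, against 0.0526, 0.0764 and 0.0167 CPM in vehicle replicates 2, 3 and 4 and the lowest listed value in replicate 1. No library reached the 1 CPM filter, and the groups overlapped. These levels correspond to 23 steps or fewer in any dendritic cell library. The log2 change was 0.13 in the limma fit without a filter (adjusted p = 0.446), and an exact permutation test gave p = 0.286 (two-sided), so no difference was detectable at this depth.

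Gas6, the soluble partner of the TAM receptors, was at 2.98, 4.89, 1.26 and 0.766 CPM in PAM3CSK4 libraries, against 2.65, 5.88, 4.78 and 2.42 CPM in vehicle libraries. The groups overlapped, with the lowest values in PAM3CSK4 replicates 3 and 4. The log2 change of -0.60 ± 0.39 (95% interval -1.45 to 0.24) did not pass (limma adjusted p = 0.349).

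Timd4 was low but higher in every PAM3CSK4 library. It was at 0.820, 2.34, 4.03 and 0.751 CPM in PAM3CSK4 libraries, against 0.587, 0.686, 0.409 and 0.502 CPM in vehicle libraries. These values stand for 52, 66, 122 and 49 steps with PAM3CSK4 and 42, 26, 16 and 30 with vehicle. The groups did not overlap, as for 10.1% of the genes tested in that direction, but only 2 libraries reached 1 CPM, so Timd4 was under the filter. An exact permutation test on the log2 values gave p = 0.0286, the smallest that 4 against 4 libraries can give, unadjusted. In the limma fit without a filter the log2 change was 0.81 with adjusted p = 0.245, which did not pass.

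**Figure D2:**
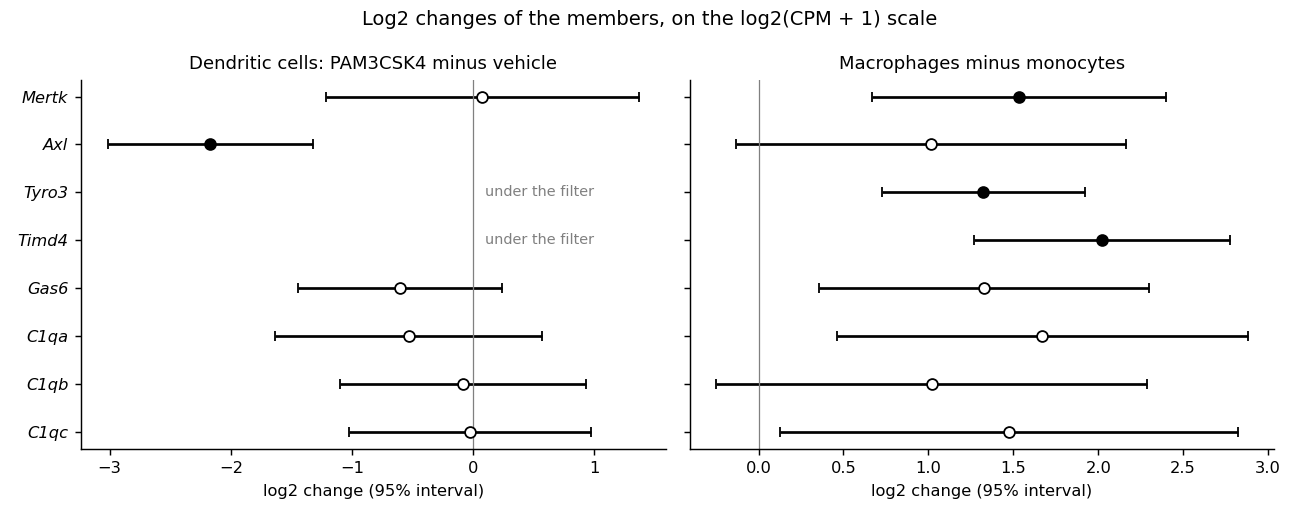
Log2 change of each gene on the log2(CPM + 1) scale with its 95% interval, PAM3CSK4 minus vehicle in dendritic cells and macrophages minus monocytes. Filled points passed the adjusted p threshold of 0.05: Axl in dendritic cells, and Mertk, Tyro3 and Timd4 in macrophages against monocytes. Tyro3 and Timd4 were under the filter in dendritic cells.

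The C1q genes varied widely among PAM3CSK4 libraries and did not pass in dendritic cells. C1qa was at 30.0, 196, 97.2 and 32.7 CPM in PAM3CSK4 libraries, against 93.4, 139, 71.3 and 91.8 CPM in vehicle libraries. C1qb was at 67.9, 346, 169 and 63.1 CPM in PAM3CSK4 libraries, against 128, 197, 113 and 112 CPM in vehicle libraries. C1qc was at 38.4, 223, 122 and 53.7 CPM in PAM3CSK4 libraries, against 78.5, 126, 66.2 and 93.9 CPM in vehicle libraries. PAM3CSK4 replicate 2 was the highest of the 8 libraries for all 3 genes, and replicates 1 and 4 were the lowest. The log2 changes were -0.53 ± 0.50 for C1qa (95% interval -1.63 to 0.57), -0.09 ± 0.47 for C1qb (-1.10 to 0.93) and -0.03 ± 0.46 for C1qc (-1.03 to 0.97), with limma adjusted p of 0.535, 0.928 and 0.979. Leaving out single libraries turned the sign for C1qb and C1qc. Over the 6 members tested the median log2 change was -0.31, beside 0.20 over all genes tested.

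C1qa was lower relative to the other chains in every PAM3CSK4 library than in any vehicle library. The ratio of C1qa to C1qb was 0.441, 0.566, 0.574 and 0.519 with PAM3CSK4, against 0.729, 0.705, 0.629 and 0.819 with vehicle. The ratio of C1qa to C1qc was 0.779, 0.877, 0.795 and 0.610 with PAM3CSK4, against 1.19, 1.10, 1.08 and 0.978 with vehicle. Neither pair of ranges overlapped, and the ratio of C1qc to C1qb did overlap, at 0.566 to 0.851 with PAM3CSK4 and 0.584 to 0.837 with vehicle. The mean log2 ratio of C1qa to C1qb differed by -0.46 and that of C1qa to C1qc by -0.52, each with p = 0.0286 by the two-sided exact permutation test, the smallest that this design allows, and 0.0571 after adjustment over the 4 ratios. With single libraries left out the differences were -0.52 to -0.38 and -0.58 to -0.41. Scaling between libraries cancels in such a ratio, and the ratios were likewise chosen after the values had been seen.

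**Figure D3:**
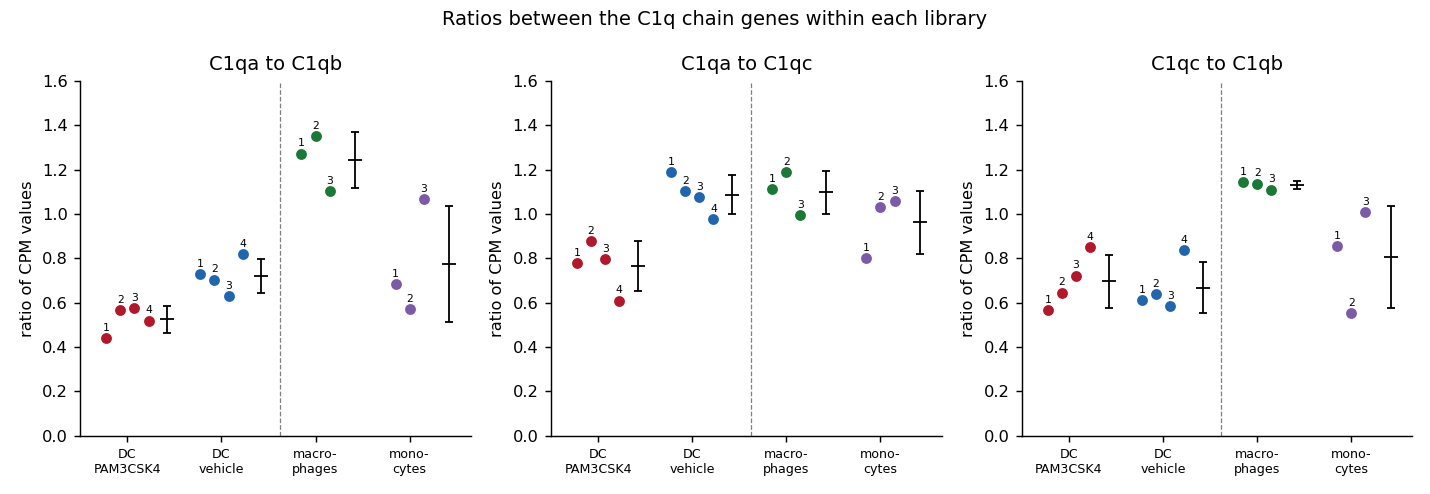
Ratio of CPM of C1qa to C1qb, C1qa to C1qc and C1qc to C1qb within each library, by group, on linear axes from 0, with the replicate number at each point and the mean ± SD of the group in black (n = 4 for PAM3CSK4 and vehicle, n = 3 for macrophages and monocytes). C1qa to C1qb lies at 0.441 to 0.574 with PAM3CSK4, 0.629 to 0.819 with vehicle, 1.10 to 1.35 in macrophages and 0.573 to 1.07 in monocytes.

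In macrophages against monocytes, Timd4, Tyro3 and Mertk rose, and the other 5 members had positive changes that did not pass. Timd4 and Tyro3 reached the 1 CPM filter in the 3 macrophage libraries and in 0 monocyte libraries, so they entered the test only through the group where they are high. Of 12188 genes tested, 20.2% changed, 12.8% rose, the groups did not overlap for 34.2%, and 20.4% were higher in all macrophage libraries than in any monocyte library. The median log2 change of the 8 members, Timd4 and Tyro3 included, was 1.40, beside 0.10 over all genes tested. These populations were sorted by different gates, and the smallest p an exact test can give with 3 against 3 libraries is 0.1, so the calls rest on limma.

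Timd4 was at 2.12, 6.19 and 3.28 CPM in macrophages, against 0.106 and 0.300 CPM in monocytes replicates 1 and 3 and the lowest listed value in monocytes replicate 2. Every macrophage library lay above every monocyte library. The log2 change was 2.02 ± 0.34 (SE, n = 3 each) with limma adjusted p = 0.0014, and 0.0047 in the fit without a filter, where entry does not depend on the macrophage libraries reaching 1 CPM. Macrophage levels rest on 71 to 422 steps and monocyte levels on 16 or fewer.

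Tyro3 was higher in macrophages, at 1.94, 1.57 and 1.44 CPM, against 0.0602 and 0.113 CPM in monocytes replicates 2 and 3 and the lowest listed value in monocytes replicate 1. The groups did not overlap. The log2 change was 1.32 ± 0.27 with limma adjusted p = 0.0046, and 0.0015 without a filter. Under quantile normalization neither Tyro3 (0.50, adjusted p = 0.208) nor Timd4 (1.32, adjusted p = 0.0518) passed.

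Mertk was at 15.9, 11.6 and 14.1 CPM in macrophages, against 9.05, 2.90 and 2.38 CPM in monocytes. The groups did not overlap, and monocytes replicate 1 came nearest to the macrophages. The log2 change was 1.53 ± 0.40 with limma adjusted p = 0.0161. The call was lost without macrophages replicate 1 (adjusted p = 0.0941), macrophages replicate 2 (0.0535) or monocytes replicate 3 (0.0655), while the change stayed positive.

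Axl was at 70.3, 53.3 and 74.4 CPM in macrophages, against 93.8, 12.8 and 26.0 CPM in monocytes. Gas6 was at 7.27, 2.17 and 4.20 CPM in macrophages, against 2.48, 0.160 and 1.14 CPM in monocytes. For both genes monocytes replicate 1 fell within or above the macrophage range. The log2 changes were 1.01 ± 0.53 for Axl and 1.33 ± 0.45 for Gas6, with limma adjusted p of 0.224 and 0.0554. Within a library, Axl to Mertk was 4.43 to 5.28 in macrophages and 4.42 to 10.9 in monocytes.

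The changes of the C1q genes did not pass while all libraries were kept. C1qa was at 26.7, 23.5 and 30.5 CPM in macrophages, against 25.3, 2.52 and 6.13 CPM in monocytes. C1qb was at 21.0, 17.4 and 27.6 CPM in macrophages, against 37.0, 4.41 and 5.74 CPM in monocytes. C1qc was at 24.0, 19.7 and 30.6 CPM in macrophages, against 31.6, 2.44 and 5.79 CPM in monocytes. Monocytes replicate 1 reached the macrophage level in all 3 genes, and the other monocyte libraries lay well below it. The log2 changes were 1.67 ± 0.55 for C1qa, 1.02 ± 0.58 for C1qb and 1.48 ± 0.62 for C1qc, with limma adjusted p of 0.0527, 0.271 and 0.123.

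Monocytes replicate 1 decided these calls. The genes called over the whole table also moved with the libraries kept. They numbered 1699 to 3364 with single libraries left out, against 2468 of 12188 with all kept. Without monocytes replicate 1 all 8 members passed, among them C1qa (2.47, limma adjusted p = 4.7e-05), C1qc (2.39, 7.9e-05), C1qb (1.90, 0.00046), Axl (1.78, 0.00056) and Gas6 (1.71, 0.0073). Monocytes replicate 1 held the highest monocyte values of these named genes. Lower p-values without it follow from those values and are no separate support. With any other single library left out, none of these named genes passed (limma adjusted p up to 0.182 for C1qa and 0.579 for C1qb). In monocytes replicate 1 the dendritic cell markers summed to 3501 CPM, against 821 and 340 CPM in the other monocyte libraries, and the macrophage markers to 566 CPM, against 230 and 289 CPM. H2-Ab1, an MHC class II gene, was at 596 CPM in it, against 75.8 and 42.2 CPM in the others, and the nonclassical monocyte gene Ace at 266 CPM, against 25.7 and 56.3 CPM. The part of these markers in its C1q and Axl levels was not tested. The macrophage libraries themselves had dendritic cell marker sums of 2210 to 4248 CPM, and plasma and B cell marker sums of 576 to 8562 CPM, against 111 to 128 CPM in monocytes. The dendritic cell list holds MHC class II genes, and the macrophage gate asked for MHC class II high cells. Of its 14 markers, 3 rose in macrophages against monocytes (Clec9a, Xcr1 and Zbtb46) and 3 fell (Cd209a, Clec10a and Mgl2), beside 12.8% and 7.42% of all genes.

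C1qa stood higher relative to C1qb in each macrophage library than in any monocyte library. The ratio of C1qa to C1qb was 1.27, 1.35 and 1.10 in macrophages and 0.684, 0.573 and 1.07 in monocytes, and C1qc to C1qb was 1.11 to 1.15 in macrophages and 0.555 to 1.01 in monocytes. Both pairs of ranges were apart, with p = 0.1 by the exact permutation test, the smallest possible. C1qa to C1qc overlapped, at 0.995 to 1.19 in macrophages and 0.800 to 1.06 in monocytes.

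Dendritic cells were not tested against the other populations. The 3 columns of the monocyte and macrophage table with dendritic cell names match no sample by name and were not used, and the vehicle libraries stand in the other table, which was made separately. Side by side, C1qb averaged 138 ± 40.1 CPM in vehicle dendritic cells (SD, n = 4), 22.0 ± 5.18 CPM in macrophages and 15.7 ± 18.4 CPM in monocytes (n = 3 each). Mertk averaged 20.3 ± 11.5 CPM in vehicle dendritic cells, 13.9 ± 2.12 CPM in macrophages and 4.78 ± 3.71 CPM in monocytes. Timd4 averaged 0.546 ± 0.118 CPM in vehicle dendritic cells, 3.87 ± 2.10 CPM in macrophages and 0.135 ± 0.152 CPM in monocytes. Axl is left out of this listing, because its values fell off whole steps in 7 of 8 dendritic cell libraries and 3 of 6 of the others, unlike nearly all values of the other members.

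**Figure D4:**
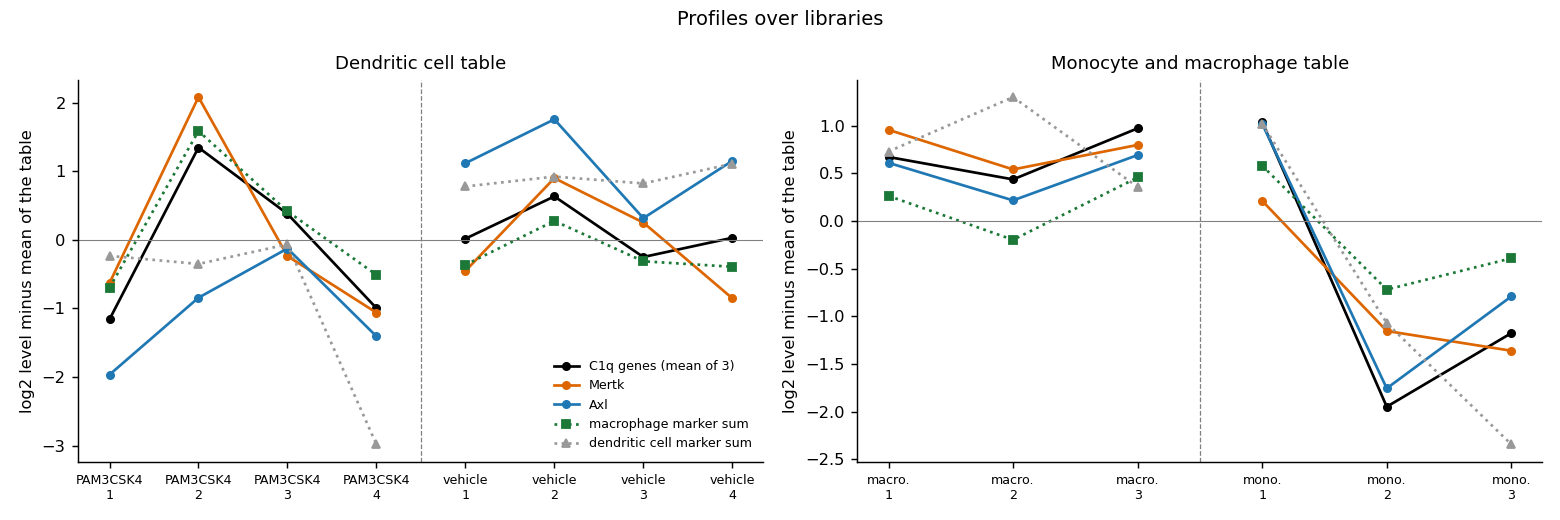
Profiles over libraries of the mean of the 3 C1q genes, of Mertk and of Axl, and of the summed macrophage and dendritic cell markers, each as log2 level minus its mean over the table. Lines join the libraries of a group for the eye only. PAM3CSK4 replicate 2 is high for C1q, Mertk and the macrophage markers but not Axl, and monocytes replicate 1 is high for C1q, Axl and both marker sums.

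Genes with the nearest profiles were taken by the root mean square difference of centred log2 values over the libraries of a table, a description with no test. Over the 8 dendritic cell libraries, the mean of the C1q genes lay nearest to Treml4 (0.22), Klra2 (0.22) and Lrp1 (0.25), beside an SD of its own of 0.77. Mertk lay nearest to Cd93 (0.31), Kcnj10 (0.36) and Cmklr1 (0.38), with C1qb at rank 12 of 9402 genes. Axl lay nearest to Ear2 (0.51), Celf4 (0.52) and Siglec1 (0.55), and Mertk ranked 6742 for it. Over the 6 macrophage and monocyte libraries, the gene nearest to the C1q mean was Axl (0.23), followed by Maf (0.27) and Hivep2 (0.28). Mertk was nearest to Rnf122, Cd274 and Ralgds (0.14 to 0.18), Tyro3 to Pcnx4, Zfp867 and Gm45935 (0.11 to 0.14), and Timd4 to Strip2, Plpp1 and Ache (0.27 to 0.30).

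Among 22 other receptors and bridging molecules for apoptotic cells, 19 were tested in dendritic cells, 1 rose and 2 fell after PAM3CSK4, beside 2.82% and 2.29% of all genes. The median log2 change of the list was -0.26. Stab2, a scavenger receptor that binds phosphatidylserine, averaged 0.393 ± 0.395 CPM with PAM3CSK4 and 3.40 ± 0.809 CPM with vehicle (log2 change -1.68 ± 0.27, limma adjusted p = 0.0073). It reached the filter in the 4 vehicle libraries and in 0 PAM3CSK4 libraries, and without a filter its adjusted p was 0.0267. Trem2, a lipid-sensing receptor, fell by 1.67 on the log2 scale (adjusted p = 0.0212), and Cd300lf, which also binds phosphatidylserine, rose by 1.44 (0.0197). The calls of Trem2 and Cd300lf were lost without any of 3 and 4 of the 8 libraries. Cd300lb (-1.01) and Havcr2 (-1.75), which encodes TIM-3, did not pass, with adjusted p of 0.0557 and 0.0662. Against monocytes, macrophages had 4 of 19 tested genes up and 5 down, beside 12.8% and 7.42% of all genes, with a median of -0.09. Stab2 rose there, at 11.1 ± 0.781 CPM in macrophages and 1.27 ± 0.852 CPM in monocytes (limma adjusted p = 0.00033), as did Cd36, Havcr2 and Scarf1, the last a call lost without a filter (adjusted p = 0.0970). Lrp1, a receptor for calreticulin-marked cells, fell, at 90.9 ± 32.7 CPM in macrophages and 872 ± 535 CPM in monocytes (-3.09 ± 0.46, adjusted p = 0.00053), as did Cd300lb, Cd300a, Trem2 and Pros1, which encodes protein S.

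Of 23 genes of engulfment and corpse digestion, 22 were tested in dendritic cells, with 0 passing limma after PAM3CSK4, beside 5.12% of all genes. An unadjusted p under 0.05 was reached by 5 of the 22, beside 2835 of all 11377 genes tested. The nearest to passing were Npc2, a lysosomal cholesterol carrier, with a log2 change of -0.93 (adjusted p = 0.0622), and the GTPase Rac2 with 0.92 (0.0692). In macrophages against monocytes, 2 of 23 rose, Abca1 and Gulp1, and 10 fell, beside 12.8% and 7.42% of all genes, with a list median of -0.72 beside 0.10 over all genes. Gulp1 reached the filter in macrophage libraries alone (limma adjusted p = 0.0021 without it), and the call of Abca1 was lost without a filter (0.0888). Dock1, which activates Rac during engulfment, averaged 21.4 ± 5.58 CPM in macrophages and 75.4 ± 5.05 CPM in monocytes (log2 change -1.80, limma adjusted p = 0.00037). Its partner Elmo2 fell (-1.78), as did Npc2 (-1.39), Rhog (-1.33) and the lysosomal nucleoside transporter Slc29a3 (-1.28).

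Of 24 other complement genes, 15 were tested in dendritic cells and 4 rose after PAM3CSK4, beside 2.82% of all genes, with a list median of 0.81 beside 0.20 over all genes. Neutrophil markers summed to 475 to 11469 CPM with PAM3CSK4 and 407 to 794 CPM with vehicle, and their part in the list was not tested. Cfb, factor B of the alternative pathway, averaged 74.1 ± 92.3 CPM with PAM3CSK4 and 2.39 ± 0.819 CPM with vehicle (log2 change 3.75 ± 0.63, limma adjusted p = 0.0079). Cd55, a decay-accelerating inhibitor, rose by 1.93 on the log2 scale and the anaphylatoxin receptor C3ar1 by 2.10, as did Itgam, a chain of complement receptor 3, at 454 ± 253 CPM with PAM3CSK4 and 148 ± 32.7 CPM with vehicle. Cd55 reached the filter in the 4 PAM3CSK4 libraries and in 0 vehicle libraries, so it was tested only through the group where it is high, and without a filter its adjusted p was 0.0801. The call of Cfb held with each library left out. Those of C3ar1 (limma adjusted p = 0.0277), Itgam (0.0274) and Cd55 (0.0181) were lost without any of 6, 5 and 3 of the 8 libraries. The number of risen genes on the list ran between 1 and 7 with single libraries left out. In macrophages against monocytes, Cd55 and Cd59a rose among 17 tested, beside 12.8% of all genes, both through a filter that they reached in macrophage libraries alone, with limma adjusted p of 0.0032 and 0.0113 without it, and C3, Cfp, Itgam and Cd93 were among those that fell. C3 averaged 125 ± 57.9 CPM in macrophages and 802 ± 193 CPM in monocytes (log2 change -2.78, adjusted p = 0.00024).

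All 21 regulators of efferocytosis and C1q genes on the list were tested in dendritic cells, where 3 rose and 2 fell after PAM3CSK4, beside 2.82% and 2.29% of all genes, with a median of 0.01 beside 0.20 over all genes. Socs3, an inhibitor of cytokine signalling, averaged 107 ± 72.6 CPM with PAM3CSK4 and 10.7 ± 6.57 CPM with vehicle (log2 change 3.06 ± 0.53, limma adjusted p = 0.0089). Nr1h3, which encodes the sterol receptor LXR alpha, rose by 2.49 (0.0267) and the macrophage factor Spic by 2.29 (0.0341), while Klf4 (-1.10, 0.0305) and Irf4 (-2.19, 0.0387) fell. The calls of Nr1h3, Spic and Klf4 were each lost without any of 5 of the 8 libraries, and that of Irf4 without any of 6. Without a filter on low values, of the calls named from the 4 lists in dendritic cells, that of Stab2 was kept and the others were lost. Among macrophages and monocytes 20 were tested, 2 rose and 3 fell, beside 12.8% and 7.42% of all genes. Klf4, a transcription factor of monocytes, averaged 17.3 ± 1.34 CPM in macrophages and 206 ± 47.8 CPM in monocytes (-3.47 ± 0.25, adjusted p = 1.6e-05). Spi1, which encodes PU.1, fell (-1.32), as did Stat6, at 77.5 ± 11.9 CPM in macrophages and 161 ± 48.7 CPM in monocytes, a call lost without any of 4 of the 6 libraries. Spic rose by 1.82 and Socs1 by 1.89.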

How the data were processed

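Gene expression was deposited as CPM per gene in 2 tables, which the authors named FPKM; the unit was read from the values, since low values fell on steps that did not depend on gene length. The share of low values within 0.05 of a whole step was 65.8% to 68.6% with dendritic cells and 87.6% to 90.5% in the other table, too few to recover counts, so no count test was run. Per the submitters' processing notes, reads were processed with STAR 2.5.3a and Partek on mm10; no source used here gives the annotation or strand setting. Groups came from the labels, and 3 columns with dendritic cell names in the monocyte and macrophage table match no sample and were not used. Values of a library summed to 350368 to 578711.

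Each table was tested with limma 3.58.1 in R 4.3.3 on log2(CPM + 1) with an intensity trend, as a two-sided test; p-values were adjusted by Benjamini-Hochberg over the genes tested, and 0.05 was the threshold. A gene needed 1 CPM in at least 4 dendritic cell libraries, or 3 of the others. Fold changes of low genes are understated on this scale. The fit was tested on simulated normal log2 values without the filter, with 4-fold changes in 200 genes of higher level. That setting does not cover low genes such as Tyro3, Timd4 and Gas6. Single values and ratios were compared by exact permutation (SciPy 1.17.1). Alternatives were another pseudocount, filter, scaling and variance model, a replicate block, and single libraries left out. Members and lists were chosen with earlier results of these data known. The genes named are the 8 members, up to 5 of each pathway list by unadjusted p, and the 3 nearest profiles; other called list members are given by name only, and 1 of the list genes is not reported here.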

Additional observations from a re-analysis of the deposited data

Results flagged for a closer look

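Among the 16 groups of 4 dendritic cell libraries examined for the 8 genes, Mertk in PAM3CSK4 libraries had 1 value far from the rest. PAM3CSK4 replicate 2 was at 82.1 CPM, and its gap to the next library was 0.901 of the range of the group. Chance marks about 5% of such groups if values are normally distributed. The values were taken as CPM, and log2 values were not examined in this way.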

How the results depend on the processing

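Axl kept its direction in dendritic cells under each alternative, and the number of members called there was 0 without a filter on low values and 1 to 1 with single libraries left out. All genes called numbered 167 without a filter, 976 with the replicate block and 184 to 1008 with single libraries left out, against 582. In macrophages against monocytes, 3 members were called, and 1 was called with a filter at 5 CPM, 1 under quantile normalization, 5 with the replicate block, and 2 to 8 with single libraries left out (8 without monocytes replicate 1). All genes called there numbered 1699 to 3364 with single libraries left out, against 2468. Mertk in dendritic cells turned negative after rescaling to a common total (-0.063), median centring (-0.14) and quantile normalization (-0.17), where the median change of all genes was 0.07, -0.02 and 0.02. With single libraries left out, Mertk ran from -0.60 to 0.44, C1qb from -0.57 to 0.24 and C1qc from -0.48 to 0.36. In macrophages against monocytes the change of each member stayed positive under every alternative; Mertk missed the threshold without a filter (adjusted p = 0.0513), Gas6 passed after rescaling to a common total (0.0417), and Gas6 (0.0112) and C1qa (0.0426) passed with the replicate block, all by limma. The cause was not tested. The labels do not say whether replicate numbers pair the samples, so the main fit had no block. Deviations of same-numbered libraries correlated at 0.03, 0.29, -0.12 and 0.30 in dendritic cells and at 0.18, 0.08 and 0.12 in macrophages and monocytes. Every macrophage library correlated best with the monocyte library of its own number. In dendritic cells, PAM3CSK4 replicates 2 and 4 correlated best with the vehicle library of their own number, and replicates 1 and 3 did not. Depth limits Tyro3 in dendritic cells and monocytes and Timd4 in monocytes.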
